A study of Mus musculus with 10 samples.

Results

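Open chromatin of the mouse cochlea that was called at postnatal days 2 and 5 (P2 and P5) and no longer at day 8 (P8) is described here. The peaks of the 3 deposited lists, 1 per age, were merged wherever they overlapped by at least 1 bp. Of the 64911 resulting regions, 6690 held a P2 peak and a P5 peak and no P8 peak, and these are called lost regions below. They made up 17.0% of the 39371 regions called at both P2 and P5 (P2–P5 regions). The other 32681 also held a P8 peak and are called kept regions. The calls themselves chose the lost regions, so that share and the direction of the change are descriptions. A region without a P8 peak overlapped no listed P8 window, which does not show that its chromatin was closed. Of the lost regions, 225 overlapped the full width of a called P8 peak.

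The assay was ATAC-seq, in which a transposase cuts open chromatin and tags it for sequencing. Nuclei came from both cochleae of CD1 mice, an outbred stock, with all tissue of 1 animal combined. There were 3 animals at 2 days of age, 3 at 5 days and 4 at 8 days, and the labels name neither a treatment nor the sorting of a cell type. The P2 list had 52085 peaks, the P5 list 47683 and the P8 list 43878, all 499 bp wide, and coordinates are those of build mm10. Since animals of an age share 1 list, their spread is unknown and no test was made between ages. Every interval given is a Wilson 95% interval for counting error only. In such bulk tissue, fewer cells of a type and less open chromatin per cell cannot be told apart. Of 20 marker genes of cochlear cell types, 19 had a region at every age, the exception being Coch with 0 regions at P5, and 8 had a lost region, against 29.1% of all 14444 genes with a P2–P5 region.

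In the days covered here the mouse ear does not yet hear. Hair cells, the sensory receptors, mature their bundles and synapses, the greater epithelial ridge regresses after laying down the tectorial membrane, and supporting cells lose much of their ability to divide and to replace hair cells. Distal elements such as enhancers change more readily with development than the promoters of widely used genes, which are often rich in CpG dinucleotides and open in most cells. Wnt signalling, with the receptors Lgr5 and Lgr6 marking progenitor-like supporting cells, and Notch signalling are the best known pathways of that epithelium.

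The promoter sequences of several genes show the range of what was lost. They are shown because a lost region lay over each of the first 6, with no P8 peak within 1 kb, while Gjb2 is a kept promoter given for contrast. Sequences are from RefSeq, assembly GRCm38.p6, which matches mm10, are written 5′ to 3′ in the direction of transcription and end at the listed gene start or at the first base of an annotated coding gene. CG dinucleotides are in capitals. The positions are chr1:135105375-135105526, minus strand, for Lgr6, chr7:121083174-121083423, plus strand, for Otoa, chr10:57784673-57784922, plus strand, for Fabp7, chr16:28753244-28753493, minus strand, for Fgf12, chr2:69586030-69586279, minus strand, for Lrp2, chr8:110266727-110266967, plus strand, for Hydin, and chr14:57104703-57104952, minus strand, for Gjb2.
Lgr6: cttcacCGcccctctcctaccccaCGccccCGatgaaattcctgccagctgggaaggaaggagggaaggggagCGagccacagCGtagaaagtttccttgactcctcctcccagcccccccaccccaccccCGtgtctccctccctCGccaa
Otoa: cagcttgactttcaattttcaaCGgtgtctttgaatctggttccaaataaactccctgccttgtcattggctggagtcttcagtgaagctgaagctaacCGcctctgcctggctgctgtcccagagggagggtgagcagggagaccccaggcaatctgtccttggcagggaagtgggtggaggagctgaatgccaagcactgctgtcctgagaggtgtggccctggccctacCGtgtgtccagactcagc
Fabp7: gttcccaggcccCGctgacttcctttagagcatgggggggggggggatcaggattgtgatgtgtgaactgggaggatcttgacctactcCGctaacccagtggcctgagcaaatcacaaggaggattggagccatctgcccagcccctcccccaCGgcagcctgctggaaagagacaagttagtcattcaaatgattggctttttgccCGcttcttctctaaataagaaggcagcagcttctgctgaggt
Fgf12: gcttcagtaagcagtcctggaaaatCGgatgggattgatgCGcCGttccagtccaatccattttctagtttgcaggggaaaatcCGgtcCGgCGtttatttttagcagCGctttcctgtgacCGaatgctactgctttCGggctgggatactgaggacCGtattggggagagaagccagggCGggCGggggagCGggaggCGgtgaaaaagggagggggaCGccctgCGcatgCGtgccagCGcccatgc
Lrp2: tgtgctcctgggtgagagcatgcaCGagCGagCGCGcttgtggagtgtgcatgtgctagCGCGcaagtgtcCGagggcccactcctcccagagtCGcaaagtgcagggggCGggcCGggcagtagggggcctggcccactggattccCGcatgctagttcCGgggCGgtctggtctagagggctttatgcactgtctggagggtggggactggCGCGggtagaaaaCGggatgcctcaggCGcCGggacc
Hydin: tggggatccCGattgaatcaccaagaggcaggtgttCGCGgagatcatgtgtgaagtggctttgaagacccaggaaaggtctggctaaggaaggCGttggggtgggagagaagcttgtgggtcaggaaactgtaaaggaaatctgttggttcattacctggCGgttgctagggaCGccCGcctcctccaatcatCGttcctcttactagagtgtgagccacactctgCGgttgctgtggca
Gjb2: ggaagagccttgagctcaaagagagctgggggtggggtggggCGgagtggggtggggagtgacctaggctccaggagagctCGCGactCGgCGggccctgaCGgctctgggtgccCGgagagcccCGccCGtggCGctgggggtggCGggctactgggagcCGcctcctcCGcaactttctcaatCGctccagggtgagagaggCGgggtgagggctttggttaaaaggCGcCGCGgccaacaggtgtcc

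Of these stretches, Otoa had 3 CG in 250 bases, Fabp7 4 in 250, Lgr6 7 in 152 and Hydin 9 in 241, while Fgf12, Lrp2 and the kept Gjb2 promoter had 18 each in 250. Lgr6 encodes a receptor for R-spondins in Wnt signalling. Otoa encodes otoancorin, which attaches the tectorial membrane to the epithelium, and Fabp7 a fatty acid binding protein of glia. Fgf12 encodes an intracellular regulator of sodium channels, Lrp2 the endocytic receptor megalin, and Hydin a protein of motile cilia. All were chosen for display after their values were seen. Gjb2 took the place of another kept promoter, that of Lgr4, which had 10 CG in its 250 bases, so single promoters do not separate lost from kept ones by this count.

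Lost regions ranked low in both lists in which they were called. Peaks were placed by percentile inside their list, using the authors' ranking value (a −log10 p-value), and 100 is the strongest. At P2 the median percentile of lost regions was 35.0 (quartiles 20.6 and 49.1), and at P5 it was 22.4 (10.4 and 36.7). Kept regions had medians of 67.8 and 65.0, and the 10283 regions called at P2 alone had 16.7. The median ranking value of lost regions was 41.5 at P2 and 21.4 at P5, against 94.4 and 47.2 in kept regions. Lost regions therefore lay between regions called at P2 alone and kept regions at P2, with wide overlap of the 3 classes. In the upper 50% of the list stood 1582 lost regions at P2 (23.6%) and 647 at P5 (9.67%). An irreproducible discovery rate (IDR) of at most 0.01, a measure of how well 2 input lists agree on a peak, was reached by 81.8% of lost regions at P2 and 59.9% at P5, against 95.4% and 94.0% of kept regions.

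**Figure D1:**
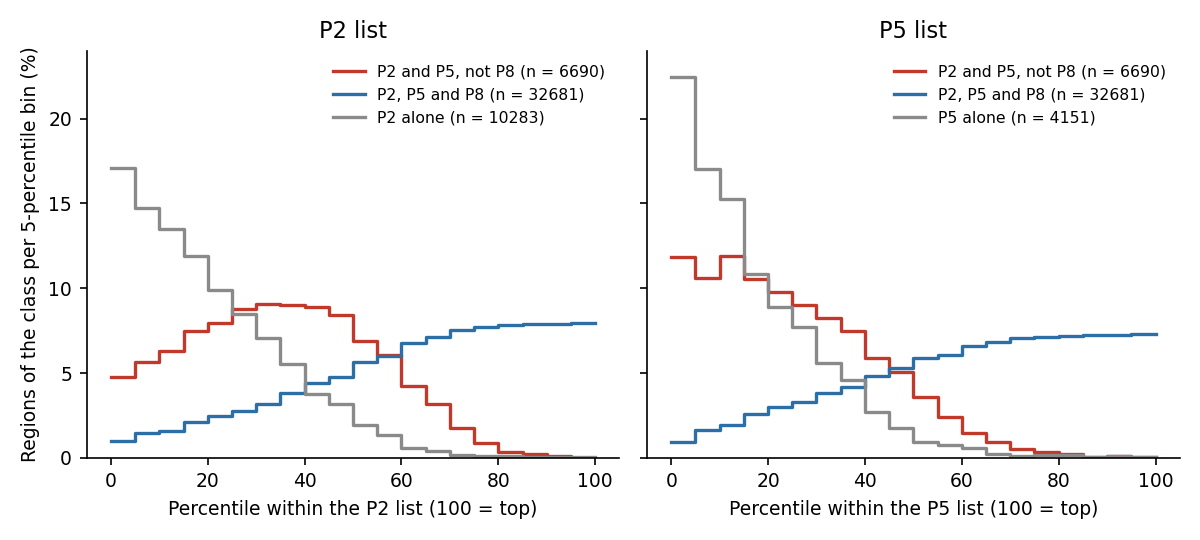
Percentile within the P2 list (left) and the P5 list (right) on the x axes, and the percent of each class of regions per 5-percentile bin on the y axis. Lost regions (red, medians 35.0 and 22.4) lie below kept regions (blue, medians 67.8 and 65.0), and regions called at 1 age (grey) gather at the lowest percentiles.

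Most lost regions stood lower in the P5 list than in the P2 list. Their percentile was lower at P5 than at P2 in 4748 of 6690 (71.0%), with a median difference (P5 minus P2) of −10.1, against −1.74 in kept regions, of which 61.1% were lower. The difference held at like P2 rank. Among regions between percentiles 40 and 60 at P2, the median difference was −21.5 in 2025 lost regions and −4.59 in 6825 kept regions. Between 60 and 80 it was −26.2 in 671 lost and −6.10 in 9513 kept regions. Between 0 and 20 the median difference was 4.53 in lost and 18.3 in kept regions, and 602 of 1618 lost regions (37.2%) stood lower at P5. The rule used the P5 call and not the P5 rank, but a region that ranks low at P5 is nearer to the P8 threshold if its level falls or the list shortens, so these values do not stand apart from the rule. The lists also differ in length, and a lower percentile is a lower place in a list and not a measured fall of the signal.

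The share of P2–P5 regions that were lost fell steeply with rank. Taking for each region the lower of its P2 and P5 percentiles, 56.3% (54.7 to 58.0) were lost in the lowest 10 percentiles, 31.8% (30.4 to 33.3) between 20 and 30, 13.8% between 40 and 50, and 1.89% between 60 and 70. In the highest 10 percentiles 8 of 4309 were lost (0.186%). Regions close to and far from gene ends followed the same course.

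**Figure D2:**
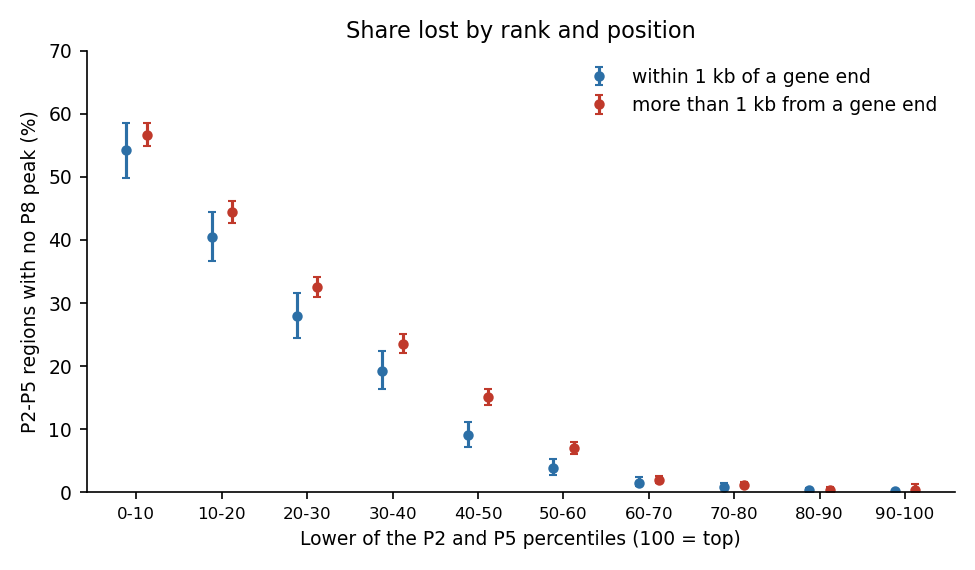
The lower of the P2 and P5 percentiles of a region in steps of 10 (x axis) and the percent of P2–P5 regions with no P8 peak (y axis), for regions within 1 kb of a gene end (blue) and farther away (red), with 95% Wilson intervals. Both fall from over 50% to under 1%, and between 40 and 50 the regions far from gene ends are lost more often (15.1% against 9.01%).

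At the edge of the rule, regions differed little. A P8 peak lay within 10 bp of 14 lost regions, the nearest at 1 bp, and 2 kept regions overlapped a P8 peak by at most 10 bp, the smallest overlap being 7 bp. Within 100 bp of the edge stood 87 lost and 75 kept regions. The 1375 kept regions in the lowest 10% of the P8 list had median percentiles of 37.2 at P2 and 25.6 at P5, close to the 35.0 and 22.4 of the lost regions.

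The highest-ranked lost regions mostly lay beside a P8 peak. Listed peaks are 499-bp windows, whereas the P8 peaks of the 2 inputs had median full widths of 710 and 716 bp, so a P8 peak centred nearby can miss a region that its full width covers. Of all lost regions, 336 (5.02%) had a P8 peak within 500 bp and 225 (3.36%) overlapped the full width of one. Of the 23 lost regions above percentile 80 in both lists, 20 had a P8 peak within 500 bp and 20 overlapped its full width, and of the 114 between 60 and 80, 36 and 37 did. Among the 3620 below 20, the numbers were 129 and 58. Of the 10 highest-ranked lost regions, 9 lay 34 to 339 bp from a P8 peak. They were nearest to Kat7, a histone acetyltransferase gene, Pask, Stap2, Odf2, Cep170, Zfp46, Idh1, Garnl3 and Tesmin, and 8 of the 9 overlapped the full width of a P8 peak, Stap2 being the exception.

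**Figure D3:**
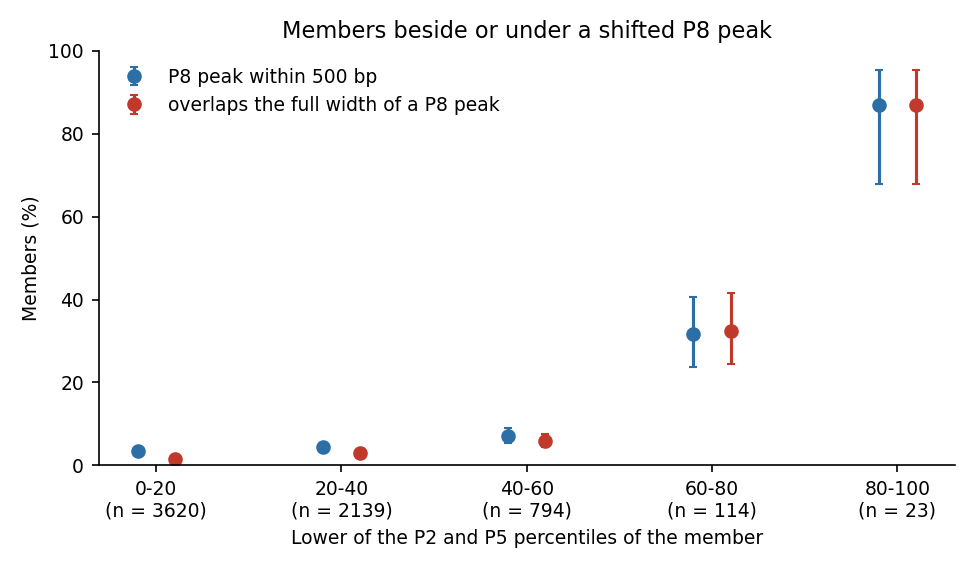
Lost regions grouped by the lower of their P2 and P5 percentiles (x axis, with the number in each group) and the percent of each group (y axis) with a P8 peak within 500 bp (blue) or overlapping the full width of a P8 peak (red), with 95% Wilson intervals. The share is under 10% up to percentile 60 and 87.0% in the 23 regions above 80.

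The remaining 1 of the 10 was the highest of all. It lay on chromosome 18 over the annotated ends where Rnmt, the gene of the mRNA cap methyltransferase, and Fam210a meet, ranked 690 of 52085 at P2 and 1153 of 47683 at P5 (percentiles 98.7 and 97.6), and the nearest P8 peak was 36627 bp away. Lost regions of high rank without a P8 peak within 500 bp, listed after their values were seen, included 1 beside Azin1 at percentiles 89.2 (P2) and 82.1 (P5), with a P8 peak at 681 bp. Another, nearest to Krt87, stood at 77.5 and 73.8, with the next P8 peak at 15058 bp, and 1 inside Epha4, which encodes an ephrin receptor, at 71.1 and 76.6, with the next at 14125 bp.

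Lost regions lay away from gene ends. Within 1 kb of the start or end of an annotated gene stood 968 of 6690, or 14.5% (13.6 to 15.3), against 37.4% (36.8 to 37.9) of kept regions and 15.9% (15.2 to 16.6) of regions called at P2 alone. Within 1 kb of a listed gene start stood 9.22% (8.54 to 9.95) of the 6462 lost regions on chromosomes with listed starts, 31.5% of kept regions and 9.87% of P2-alone regions. The share inside a protein-coding gene was 52.4% (51.2 to 53.6), close to the 52.6% of kept regions. Kept regions ranked higher, and high-ranked regions lie at gene ends more often. Between percentiles 20 and 30 of the lower rank, 32.5% (30.9 to 34.1) of regions far from gene ends were lost and 27.9% (24.5 to 31.5) of those near them. Between 40 and 50 the shares were 15.1% (13.9 to 16.3) and 9.01% (7.22 to 11.2), and between 50 and 60 they were 7.00% (6.14 to 7.97) and 3.87% (2.78 to 5.36). Only in these last 2 steps of 10 percentiles did the intervals not overlap.

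Most lost regions were not next to a called P8 region. No P8 peak lay within 5 kb of 4826 lost regions, or 72.1% (71.1 to 73.2), and the median distance to the nearest P8 peak was 10903 bp (quartiles 4428 and 27133). For P2-alone regions the share was 70.2% and the median 10268 bp, so lost regions were about as far from P8 peaks as those. Yet 5796 lost regions (86.6%) had a P8 peak within 50 kb.

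Losses were spread over the genome with little clustering. Among lost regions with another P2–P5 region within 50 kb, the nearest was also lost in 1070 of 5711, or 18.7% (17.7 to 19.8), against 4893 of 29031, or 16.9% (16.4 to 17.3), around kept regions. When both regions lay more than 1 kb from a gene end, the shares were 22.0% (20.7 to 23.4) and 21.6% (20.9 to 22.3). The 2 classes then differed by less than counting error. At distances of 10 to 20 kb they were 21.2% and 15.6%. Within 1 kb the order was the opposite, 7.59% around lost and 25.0% around kept regions. By chromosome the share lost was highest on chromosome 1, at 18.8%, apart from chromosome Y with 2 of 3.

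Chained at gaps of up to 50 kb between their middles, 4059 lost regions (60.7%) stood alone and 5 chains held 6 or 7. The longest, 7 lost regions over 133 kb of chromosome 9, lay in and beside Trak1, an adaptor gene of mitochondrial transport. Its span held 13 P2–P5 regions and 9 regions with a P8 peak. A chain of 6 over 98.0 kb in and beside Chst15 held 7 P2–P5 regions and 1 with a P8 peak, and a chain of 6 over 147 kb in and beside Daam1 held 7 and 2. The others lay at Megf6, Arhgef16 and Tprgl on chromosome 4, and at Tha1, Socs3 and Birc5 on chromosome 11. Runs of 5 consecutive P2–P5 regions that were all lost numbered 7. The 2 shortest of these lay in Tns1 (75.0 kb) and in and beside Lgr6 (89.2 kb). Others were in Daam1, Ank2 and Cux1 and across Ano2 and Kcna5. Within 219 kb of Cux1 the span of such a run held no region with a P8 peak.

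Each lost region was given to its closest coding gene, if 1 lay within 100 kb, which does not show which gene an element acts on. Of 14444 genes with a P2–P5 region, 4199 had a lost one, 3064 of these a single one and 45 at least 5. Over all regions with a gene, 16.1% were lost. All P2–P5 regions were lost in 612 genes, of which 64 had 2 or more and 6 had 3. These 6, named after the count was seen, were Dcn, Erbb4, Gm2115, Nr5a1, Pxdn and Wdr72. Dcn encodes the matrix proteoglycan decorin, and its 3 lost regions stood at percentiles 1.16, 2.02 and 12.9 at P2 and 11.6, 11.3 and 48.0 at P5. It had 2 regions called at P8, 1 of them also called at P5. Erbb4, a neuregulin receptor gene, kept none of its 3 P2–P5 regions, and 2 of its regions had a P8 peak.

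Lgr6 had the highest share of lost regions among genes with at least 6 P2–P5 regions, 6 of 7. The gene (gene ID 329252) lies on chromosome 1 at 134983300 to 135105374. The region over its listed start, at 135105056 to 135105578, stood at percentile 62.3 at P2 and 33.0 at P5, and the nearest P8 peak was 21105 bp away. A neighbour at 135105895 to 135106395 stood at 16.7 and 35.1, and 1 upstream at 135112627 to 135113125 at 54.9 and 20.6. Inside the gene, lost regions stood at 27.8 and 48.6 (135098334 to 135098834), at 21.2 and 49.2 (135023896 to 135024457) and at 53.4 and 12.7 (134987509 to 134988011). The 1 kept region, inside the gene at 134998142 to 134998646, stood at percentile 70.7 of the P2 list, 67.0 of the P5 list and 35.2 of the P8 list. In number, the Lgr6 regions went from 10 (P2) and 8 (P5) to 3 (P8), and 2 of the last were called at P8 alone. The count of 6 of 7 was the same at equal list length.

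Daam1, a formin-family gene that links Wnt and planar polarity signals to actin, had the most lost regions, 10 of 13. Its promoter, at 71830765 to 71831305 on chromosome 12, was kept and stood above percentile 99 in all 3 lists (99.95, 99.6 and 99.7). Of the 10 lost regions, 5 lay inside the gene. The percentiles of all 10 ran from 1.34 to 59.2 at P2 and from 8.01 to 57.7 at P5, and those of the 5 inside the gene from 26.4 to 57.7 at P5. In number, its regions went from 15 (P2) and 16 (P5) to 6 (P8). With only as many top peaks of each list as the P8 list holds (equal list length), 7 of 9 were lost, and with genes assigned within 20 kb 6 of 8.

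Chst15, a chondroitin sulfate sulfotransferase gene on chromosome 7, had 9 of 12 lost, of which 1, at 79.1 (P2) and 61.4 (P5), inside the gene at 132276108 to 132276606, ranked high. The other 8 stood between 3.14 and 44.1 at P2 and between 2.79 and 37.4 at P5, and at equal list length only 3 of 6 were lost, and with genes assigned within 20 kb 5 of 7. A kept region inside the gene, 48.5 bp from the listed start of Gm10584, stood at 78.5, 71.9 and 62.0 at P2, P5 and P8. Cux1, a homeodomain factor gene on chromosome 5, had 7 of 11 lost, with percentiles of 2.31 to 45.8 at P2 and 5.79 to 41.2 at P5. A further 11 Cux1 regions were called at P2 alone, and the kept region near its start stood at 83.0 at P2 and 79.2 at P8. At equal list length 5 of 9 Cux1 regions were lost.

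**Figure D4:**
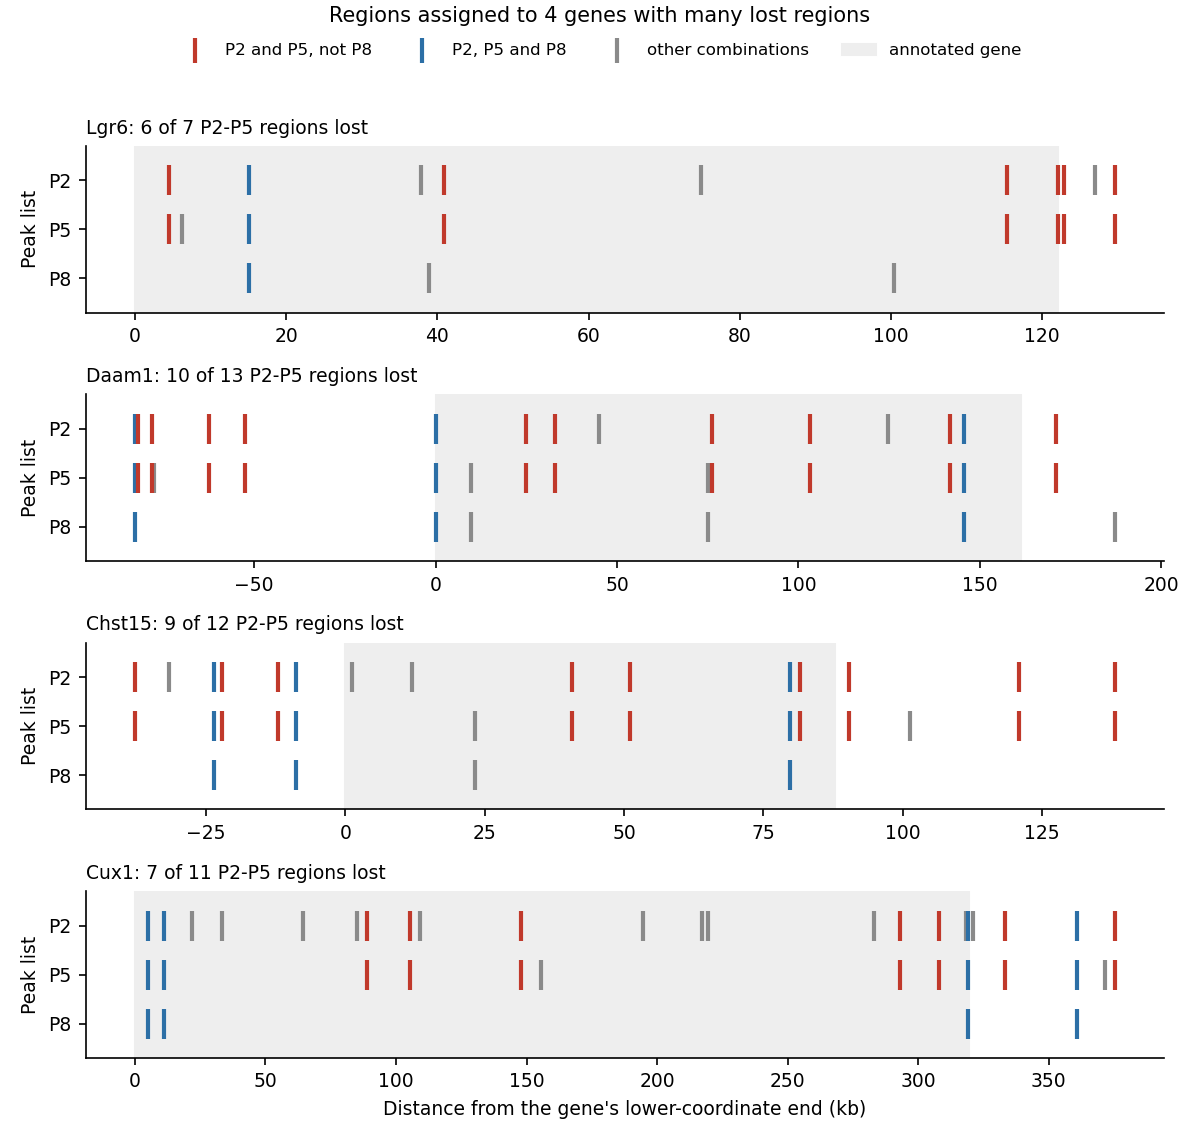
Regions assigned to Lgr6, Daam1, Chst15 and Cux1, by distance in kb from the gene's lower-coordinate end (x axis), with 1 row of ticks per peak list (y axis). Lost regions (red) lie inside and around each annotated gene (grey), with kept regions (blue) between them; the lost ones number 6, 10, 9 and 7.

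The other genes with most lost regions were Tns1 with 8 of 19, encoding the focal adhesion protein tensin 1, and 11 with 7 each. These were Dgki (7 of 16), Disc1 (of 14), Dnm3 (of 13), Grip1 (of 13), Nckap5 (of 17), Shank2 (of 15), Thsd4 (of 16), Trak1 (of 19), Trpm3 (of 22), Zfp423 (of 22) and Cux1 (above). Shank2 encodes a scaffold of the postsynaptic site and Dnm3 a dynamin. These genes are long, from 177 kb (Trak1) to 917 kb (Nckap5), and a count favours genes with many regions. At equal list length Trak1 had 3, Zfp423 3, Disc1 4 and Thsd4 4. Assigned to the nearest gene end in place of the gene body, Nckap5 had 2, Grip1 1, Dgki 4, Dnm3 4, Shank2 3, Thsd4 3, Tns1 3, Trpm3 2 and Zfp423 4. Among genes with 6 P2–P5 regions, 4 were lost for each of Atrnl1, Cbfa2t3, Dlg2, Itga11, Plcg2 and Plxna1. By nearest gene end, Dlg2 lost 0 of 1, Atrnl1 2 of 4 and Plxna1 2 of 2.

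Gene lists of cochlear cell types and pathways lost regions at shares around the 16.1% of all regions with a gene. Of 29 lists, 19 were above that value, and in 1, erythroid genes with 8 regions, the whole interval was. Most lists ranked lower than all regions with a gene, whose median lower percentile was 52.9. Hair cell genes had 43.9, spiral ganglion neuron genes 41.6 and Hedgehog genes 45.6. Only the neutrophil and mast cell, cell cycle and housekeeping lists ranked higher. The shares of the lists were not compared at like rank. Of all genes with a P2–P5 region, 29.1% had a lost one, which is the value to set beside the gene counts below, and genes with more regions have more that can be lost. No list was tested, and lists with fewer than 20 regions say little.

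Among Wnt pathway genes, 49 of 240 P2–P5 regions were lost (20.4%), in 28 of 56 genes. The median of the lower percentile of the list's regions was 37.4, below the 52.9 of all regions with a gene, so the list ranked lower. Receptors and co-receptors lost 20 of 74, of which Lgr6 lost 6 of 7, Ror1 5 of 10 and Ror2 3 of 8. The Frizzled genes, which encode the main Wnt receptors, together lost 3 of 29, Lrp5 1 of 8 and Lrp6 0 of 3. Ror1 and Ror2 encode receptors of the non-canonical branch. Lgr5, the progenitor marker, lost 2 of 5. Of ligands, Wnt5b lost 4 of 8 and Wnt11 2 of 5. Among those of Wnt5b was the region over 1 of its 3 listed starts, at percentiles 30.7 (P2) and 7.88 (P5). Another listed start of Wnt5b overlapped a P8 peak. Wnt7b lost only 1 of 13. Of secreted inhibitors, Dkk2 lost 2 of 3 and Dkk3 1 of 7. Of nuclear effectors, Tcf7l2 lost 3 of 11 and Lef1 1 of 5.

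Notch pathway genes lost 16 of 110 (14.5%). Hes1, a target gene that holds back hair cell fate, lost 3 of 8, the nearest to a gene end at 4235 bp, and Nrarp, a feedback inhibitor, 2 of 4. Jag2, a ligand of hair cells, lost 1 of 2, over its listed start, at 36.5 (P2) and 27.0 (P5). Hedgehog pathway genes lost 17 of 82 (20.7%) in 11 of 17 genes, with Gli2 at 4 of 18 and the co-receptor genes Cdon at 2 of 4 and Boc at 2 of 8. Bmp and Tgf-beta genes lost 26 of 189 (13.8%), with Bmp7 at 3 of 10. Fgf pathway genes lost 14 of 86 (16.3%), with Fgfr2 at 3 of 10. Retinoic acid and thyroid hormone genes lost 10 of 88 (11.4%), Thrb 2 of 13. Genes of cytoskeleton and adhesion regulators lost 50 of 254 (19.7%) in 21 of 34 genes, Tns1 contributing 8.

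Hair cell genes lost 12 of 57 (21.1%) in 8 of 24 genes. Lhfpl5, a part of the mechanotransduction complex, lost both of its regions. The 1 over its listed start stood at 48.8 (P2) and 20.2 (P5) and the 1 inside the gene at 54.0 and 43.9, and the nearest P8 peaks were 46372 and 41471 bp away. Tmc1, which encodes a channel subunit of that complex, lost 3 of 6, at 19.5, 52.0 and 31.1 at P2 and at 21.1, 33.4 and 59.3 at P5. Lhfpl5 had no region at P8. Spiral ganglion neuron genes lost 20 of 84 (23.8%) in 13 of 25 genes, with the neurotrophin receptor genes Ntrk3 at 3 of 9 and Ntrk2 at 2 of 11, and Calb2, the calretinin gene, at 2 of 5.

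Tectorial membrane and greater epithelial ridge genes lost 10 of 53 (18.9%). Otogl, a gene of an otogelin-like matrix protein, lost 3 of 5, and Otoa 2 of 5, among them the region over its start at 23.9 (P2) and 5.77 (P5). Supporting cell genes lost 19 of 109 (17.4%), of which 6 were those of Lgr6. Gap junction genes lost 7 of 27 (25.9%), with Panx1, which encodes a pannexin, at 2 of 4. Neither Gjb2 nor Gjb6, the genes of connexins 26 and 30 joined in cochlear gap junctions, lost its 1 P2–P5 region. That of Gjb2 lay over its start and stood at 75.4, 63.1 and 70.5 at P2, P5 and P8. That of Gjb6 lay 49083 bp from the gene and stood at 29.3, 17.5 and 40.8. The region over the Gjb6 start was called at P8 alone.

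In the lateral wall, marginal cell genes lost 11 of 69 (15.9%), among them 2 of the 3 of Kcne1, a potassium channel subunit gene, at 32.4 and 32.4 (P2) and 10.4 and 12.3 (P5). Fibrocyte and otic mesenchyme genes lost 18 of 94 (19.1%). Intermediate cell genes lost 6 of 49 (12.2%), Schwann and satellite glia genes 5 of 42 (11.9%), endothelial genes 6 of 55 (10.9%) and osteoblast genes 6 of 55 (10.9%). Erythroid genes lost 4 of 8, Tfrc 2 of 3 among them, and Hox genes 4 of 12, each in a different gene. Cell cycle genes lost 13 of 73 (17.8%) in 8 of 26 genes, or 30.8%, near the 29.1% of all genes. Those with most were the proliferation marker gene Mki67 at 3 of 7, Mycn at 3 of 8 and Ccne1 at 2 of 7. Genes of fetal growth and developmental timing lost 14 of 78 (17.9%). Among those with imprinted expression, Dlk1 lost 2 of 3 and Cdkn1c 2 of 4, while Igf2 lost 0 of 2, Grb10 0 of 4 and Igf2r 1 of 7. Housekeeping genes lost 6 of 37 (16.2%).

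Promoters were lost far less often than all P2–P5 regions (17.0%), but kept promoters also ranked far higher. Their median lower percentile was 86.5, against 59.8 in all kept regions, and these shares were not compared at like rank. Of 10803 pairs of a listed gene start (window from 250 bp before to 50 bp after) and a P2–P5 region over it, 417 were lost, or 3.86%. In 88 of them a P8 peak still lay within 1 kb of the start window, or the full width of a P8 peak reached that window. In the other 329 no P8 peak lay within 1 kb of the start window. Counted by gene, 219 of 9042 protein-coding genes with such a start were of that kind, or 2.42%, and 27 of the 219 had another listed start under a P8 peak. Among the 219 were 10 genes of the lists, Alpl, Fabp7, Fgf12, Fgf23, Hoxd10, Jag2, Lgr6, Lhfpl5, Otoa and Wnt5b. Of these, Wnt5b had another listed start under a P8 peak. The highest-ranked of the 219 were Fgf12 (percentiles 71.8 at P2 and 61.6 at P5), Lrp2 (71.8 and 61.5) and Hfm1 (74.6 and 61.2). Chromosome 18 had no listed starts and is left out of these promoter counts. The lost region where Rnmt and Fam210a meet, at 98.7 and 97.6, was therefore not among them.

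Lost promoters with no P8 peak within 1 kb, called lost windows from here on, held less CpG than kept ones. In the windows of the 329, whose sequences above are examples, the ratio of observed to expected CpG had a median of 0.458 (quartiles 0.272 and 0.667), against 0.788 (0.619 and 0.926) in 10386 kept windows, with a median GC content of 56.7% against 62.0%. Over all 32851 listed windows, called or not, the median ratio was 0.384 and the GC content 52.7%, below those of the lost windows. Kept promoters ranked far higher, so windows were also compared at like rank. Between percentiles 0 and 20 the medians were 0.466 (n = 184) and 0.567 (n = 307), between 20 and 40 they were 0.461 (n = 102) and 0.591 (n = 542), and between 40 and 60 they were 0.430 (n = 39) and 0.649 (n = 951). Lost windows had the lower median in each, with wide overlap. Between 60 and 80 stood only 4 of the 329, with a median of 0.717 against 0.741 in kept ones. Of these 4, Fgf12 stood above the kept median at 0.783 and Lrp2 below it at 0.652. The 88 other lost starts, left out above, had a median of 0.705. At like rank theirs were 0.683 (0 to 20, n = 24), 0.570 (20 to 40, n = 20) and 0.728 (40 to 60, n = 18). Between 60 and 80 it was 0.873 (n = 13), and between 80 and 100 it was 0.817 (n = 13), against 0.823 in kept windows. They thus stood above kept windows except between 20 and 40 and between 80 and 100.

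**Figure D5:**
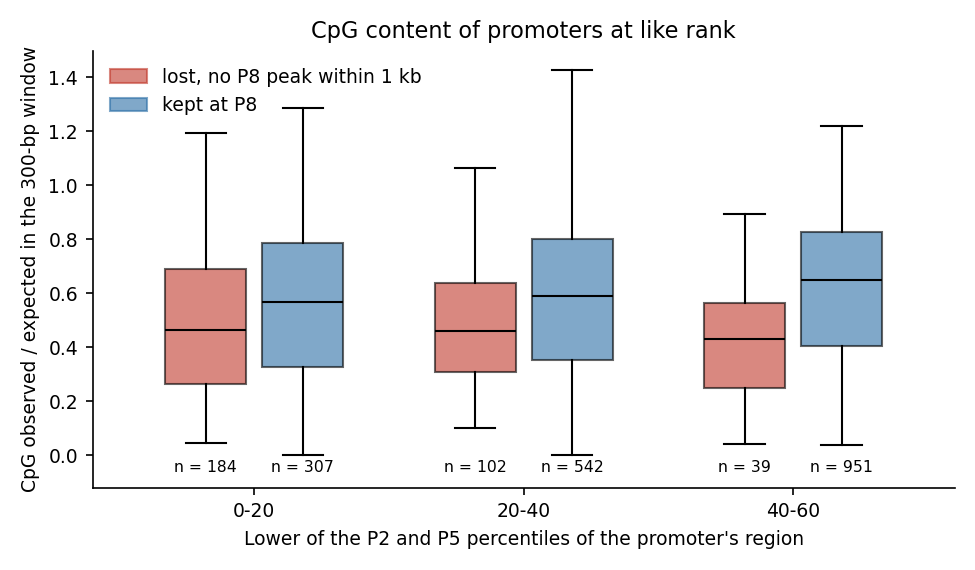
Ratio of observed to expected CpG in the 300-bp window at a listed gene start (y axis), by the lower of the P2 and P5 percentiles of the region over it (x axis), for lost starts with no P8 peak within 1 kb (red) and kept starts (blue). Boxes show quartiles and median, whiskers reach the last value within 1.5 box lengths; the red medians (0.466, 0.461 and 0.430) lie below the blue ones (0.567, 0.591 and 0.649).

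Of 10 short motifs searched on both strands in these windows, chosen after the data had been seen, 4 are described in full. The ETS-type motif CCGGAAG stood in 7 of 329 lost windows, or 2.13% (1.03 to 4.33), in 19.2% (18.4 to 19.9) of kept windows and in 8.86% of all 32851 listed windows. At like rank the shares in lost and kept windows were 2.72% and 8.47% between percentiles 0 and 20, 1.96% and 6.09% between 20 and 40, and 0 of 39 and 8.31% between 40 and 60, with intervals that overlapped in each of these 3 groups. CCGGAAG holds a CG, so it moves with CpG content, and its part apart from that was not tested. The E-box CAGCTG stood in 23.4% (19.2 to 28.3) of lost and 14.9% (14.3 to 15.6) of kept windows, but at like rank the shares were 25.5% and 22.5%, 21.6% and 20.7%, and 20.5% and 18.8%. It is in the printed Lgr6 stretch. A match is only a match of letters. The GC box GGGCGG stood in 43.2% of lost, 68.7% of kept and 35.7% of all listed windows. At like rank it stood in 47.8% and 57.3%, 39.2% and 58.1%, and 28.2% and 59.7% of lost and kept windows. Its intervals overlapped between percentiles 0 and 20 (40.7 to 55.0 and 51.7 to 62.7) but not between 20 and 40 or 40 and 60. GGGCGG also holds a CG, and its part apart from CpG content was not tested. The CCAAT box stood in 30.7% of lost and 39.5% of kept windows, but at like rank the order was the opposite, 29.9% and 22.1%, 31.4% and 25.3%, and 33.3% and 29.8%, with overlapping intervals. The remaining motifs were the TATA box TATAAA, the E-box CACGTG, the cAMP response element TGACGTCA, the AP-1 site TGAGTCA, the Sox-type motif AACAAAG and the octamer ATGCAAAT.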

How the data were processed

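The data are ATAC-seq peak lists from cochleae of 10 mice. Per the submitters' processing notes the tools were Trimmomatic 0.33, Subread 1.4.6-p3 and MACS2 2.1.0, on mm10. The authors deposited 1 list per age in the 20-column layout of an IDR comparison of 2 inputs, with an IDR of at most 0.05. The sources used here do not say which animals formed each input. The deposited ranking value is a −log10 p-value, the deposited IDR score is the −log10 of the IDR, and the full widths are the authors' positions of each peak in the 2 inputs. Read depth is unknown, and peaks are not compared by height across lists.

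From these lists, regions were merged at 1 bp, ranked within each list and assigned to the nearest protein-coding gene of the RefSeq GRCm38.p6 table within 100 kb, with Python 3.11.15, pandas 2.3.3, numpy 2.4.6 and scipy 1.17.1. Of 771 entries in the 29 gene lists, 768 matched. Scripts were tested on simulated regions. The regions, gene lists and comparisons were chosen with earlier results of these data known. Genes were named by a rule: the 15 with most lost regions, the 10 with the highest share among those with at least 6 regions, those at the 10 highest-ranked lost regions, in the 5 largest chains and 3 longest runs, up to 3 per list, and Gjb2 and Gjb6. Other genes, the promoter windows and the motifs, taken from a wider exploratory look, were picked after values were seen. Alternatives covered list length, IDR, overlap, distances and gene assignment. Some genes that the rule names are not reported here.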

Additional observations from a re-analysis of the deposited data

How the results depend on the processing

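No paired analysis was possible because each age has 1 list over all its animals, so no animal could be left out either. The share lost, 17.0%, was 13.1% at equal list length, 18.0% with an overlap of at least 250 bp, 16.1% with a P8 peak within 500 bp counted as kept, 16.4% with the full width of P8 peaks (an alternative chosen after seeing the data) and 1.88% (382 regions) in the upper 50% of the P2 and P5 lists. The cause was not tested. The median percentiles, 35.0 at P2 and 22.4 at P5, were 41.8 and 28.9 at equal length, 44.9 and 35.2 at an IDR of at most 0.01, 36.0 and 23.5 with 250 bp overlap, and 65.8 and 59.4 in the upper 50%. Of lost regions, 14.5% lay within 1 kb of a gene end, 9.40% within 500 bp and 22.3% within 2 kb. With 250 bp overlap the share was 15.8%, with P8 within 500 bp 13.3%, with full width 13.5% and in the upper 50% 20.7%. Under each list setting it stayed below that of kept regions. The share with a lost nearest neighbour, 18.7%, was 16.9% within 10 kb, 22.0% with both more than 1 kb from a gene end, 14.9% at equal length and 1.13% in the upper 50%, where kept regions had 1.84%, the opposite order. The share with no P8 peak within 5 kb, 72.1%, was 85.7% for 2 kb, 32.6% for 20 kb, 76.9% at the stricter IDR, 68.1% with 250 bp overlap, 76.0% with P8 within 500 bp, 74.6% with full width and 63.1% in the upper 50%. Over regions with a gene, 16.1% were lost, 12.4% at equal length, 15.1% with genes within 20 kb, 15.7% by nearest gene end, 15.3% with P8 within 500 bp and 15.6% with full width. Of 29 lists, 12 were above the share of all regions under every setting and 4 under none. For 21 named genes, 86 of 105 alternative counts were within 1.5 times, and 12 of the other 19 came from nearest gene end.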

Other observations

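Gene families linked to the axoneme, a microtubule structure of motile cilia and sperm tails, had lost promoters often. They were defined by symbol alone, so not every member need be an axoneme gene. The families (symbols starting with Agbl, Cfap, Dnah, Dnai, Drc, Hydin, Rsph, Spag, Tekt or Ttll) were picked and narrowed after their values were seen, so no test was made. Of 56 such genes with a start called at P2 and P5, 13 had it lost with no P8 peak within 1 kb, or 23.2% (14.1 to 35.8), against 219 of 9042 protein-coding genes. Their starts ranked lower, with a median lower percentile of 62.8 against 86.6. Among starts below percentile 40, 12 of 19 genes of these families (63.2%, 41.0 to 80.9) and 189 of 853 coding genes (22.2%, 19.5 to 25.1) lost the start. Hydin, a protein of the central apparatus, stood at 73.8 (P2) and 38.7 (P5), and Cfap161 at 81.1 and 49.7. Dnah1, a dynein heavy chain gene, stood at 46.3 and 18.1.

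A pair of GTTGC and GCAAC 1 to 4 bases apart is a pattern of the X-box motif, set after reading the Hydin promoter. It stood in 1 of 13 lost and 10 of 43 kept starts of these families. In other coding genes it stood in 1 of 206 lost and 45 of 8994 kept starts. Of 1473 lncRNA genes with a start called at P2 and P5, 109 had it lost with no P8 peak within 1 kb, or 7.40% (6.17 to 8.85), against 2.42% of coding genes. Their starts ranked lower, with a median lower percentile of 75.6, and the comparison was not made at like rank. Of 158 miRNA hairpins with a P2–P5 region within 1 kb, 17 had a lost one, or 10.8% (6.83 to 16.6). Of all P2–P5 regions 17.0% were lost, but that is a share of regions and not of hairpins. The 2 were not compared at like rank.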
